A study of Mus musculus with 8 samples.

Results

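The 47 genes described here encode the machinery that copies DNA: the origin recognition complex, the factors that load and activate the replicative helicase, the polymerases with their clamp and clamp loader, the enzymes that join Okazaki fragments and those that supply nucleotides. They were chosen by symbol, and every probe set annotated to them was examined, among 18193 genes that the arrays name. All 47 had at least 1 probe set bright enough to test, at or above 5 on the log2 scale in 4 arrays or more, against 11027 genes in all. The samples were spleens of 8-week-old Nix null mice (Nix-/-), called Nix_KO, and of 8-week-old wild-type mice (WT), with 4 animals and 4 arrays in each group, no treatment and no pooling of RNA. The labels name no Cre driver or tissue restriction of the null allele, and its construction and the mouse strain are not given in the sources used here. Each array keeps its title's number, and values per array are always listed in the order Nix_KO 10, 2, 3 and 6, then WT 3, 4, 5 and 6.

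Before a cell divides, the origin recognition complex marks the sites where copying will start, and Cdc6 and Cdt1 load rings of Mcm2 to Mcm7 there. Cdc7 with its partner Dbf4, together with Cdc45, the GINS complex and Mcm10, turns the loaded rings into active helicases, and polymerases then extend new strands behind them. In the spleen of an adult mouse, red cell precursors, white cell precursors and activated lymphocytes are known to be cells that replicate their DNA.

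Array medians lay between 28.84 and 30.61 intensity units, and the share of probe sets at or above a log2 intensity of 5 was 48.6% to 49.3%. The 3 probe sets of Bnip3l, the gene that encodes Nix, read 9.52 to 13.16 in Nix_KO and 9.38 to 12.57 in WT. None of them passed the test, and since all 3 are annotated jointly to Bnip3l and a pseudogene they do not check the genotype labels. The markers of a spleen were present: the mean log2 intensity of 7 B cell markers was 10.4 to 11.24 in Nix_KO and 12.12 to 12.41 in WT. Markers of the exocrine pancreas, an organ that lies against the spleen, averaged 12.55 in Nix_KO 3, 11.55 in WT 3 and 9.42 in WT 5, and 5.03 to 6.97 in the other 5 arrays. The calls of the replication genes, their median difference and the gene pairs are therefore also given without those 3, and other values rest on all 8 arrays.

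Replication genes were higher in Nix_KO spleens at every step of the process. Of the 47 genes, 40 rose, 0 fell and 7 did not pass the test (limma, adjusted p at most 0.05), where 13.1% of all tested genes were called higher and 21.3% lower. The median log2 difference over the 47 genes, Nix_KO minus WT, was 1.15, against -0.15 over all tested genes. These counts and medians use the brightest probe set of each gene. The difference ran from -0.19 for Pold1, the catalytic subunit of polymerase delta, up to 2.17 for Cdc6, the helicase loader. A log2 difference of 1 is a 2-fold change, and 30 of the 47 genes were at least 2-fold higher, against 7.38% of all tested genes that were called and at least 2-fold higher. On those probe sets Cdc6 (4.51-fold), the clamp loader subunit Rfc4 (4.34-fold) and the GINS subunit Gins1 (4.11-fold) were the 3 genes past 4-fold. Dimmer probe sets of Rrm2 (5.41-fold, limma adjusted p = 0.00216) and Orc1 (5.36-fold, limma adjusted p = 0.0034) were past it too. A second probe set of Rfc4 rose 4.15-fold and a dim second one of Gins1 rose 2.09-fold. For 41 of the 47 genes all 4 Nix_KO arrays lay above all 4 WT arrays, which was so for 15.7% of all tested genes.

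In bulk tissue, a lower or higher number of dividing cells and a change in RNA per cell cannot be told apart. Markers of several cell types moved with the replication genes. All 11 tested markers of red cell precursors rose, with a list mean of 12.7 to 13.16 in Nix_KO and 9.81 to 11.79 in WT and a summed level of 16.95 to 17.3 against 14.74 to 16.08. All 10 markers of neutrophils and their precursors rose, with a summed level of 14.01 to 14.97 in Nix_KO and 10.89 to 13.73 in WT. All 7 tested markers of B cells fell, with a summed level of 13.69 to 14.5 in Nix_KO and 15.32 to 15.61 in WT. Of the 7 tested T cell markers 5 fell and 2 did not pass, with a summed level of 11.74 to 12.77 in Nix_KO and 12.77 to 13.39 in WT. All 7 tested markers of dividing cells that are not among the 47 genes, such as Mki67, rose, with a median log2 difference of 1.7. The part of these cell types in the replication genes' difference was not tested.

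**Figure D1:**
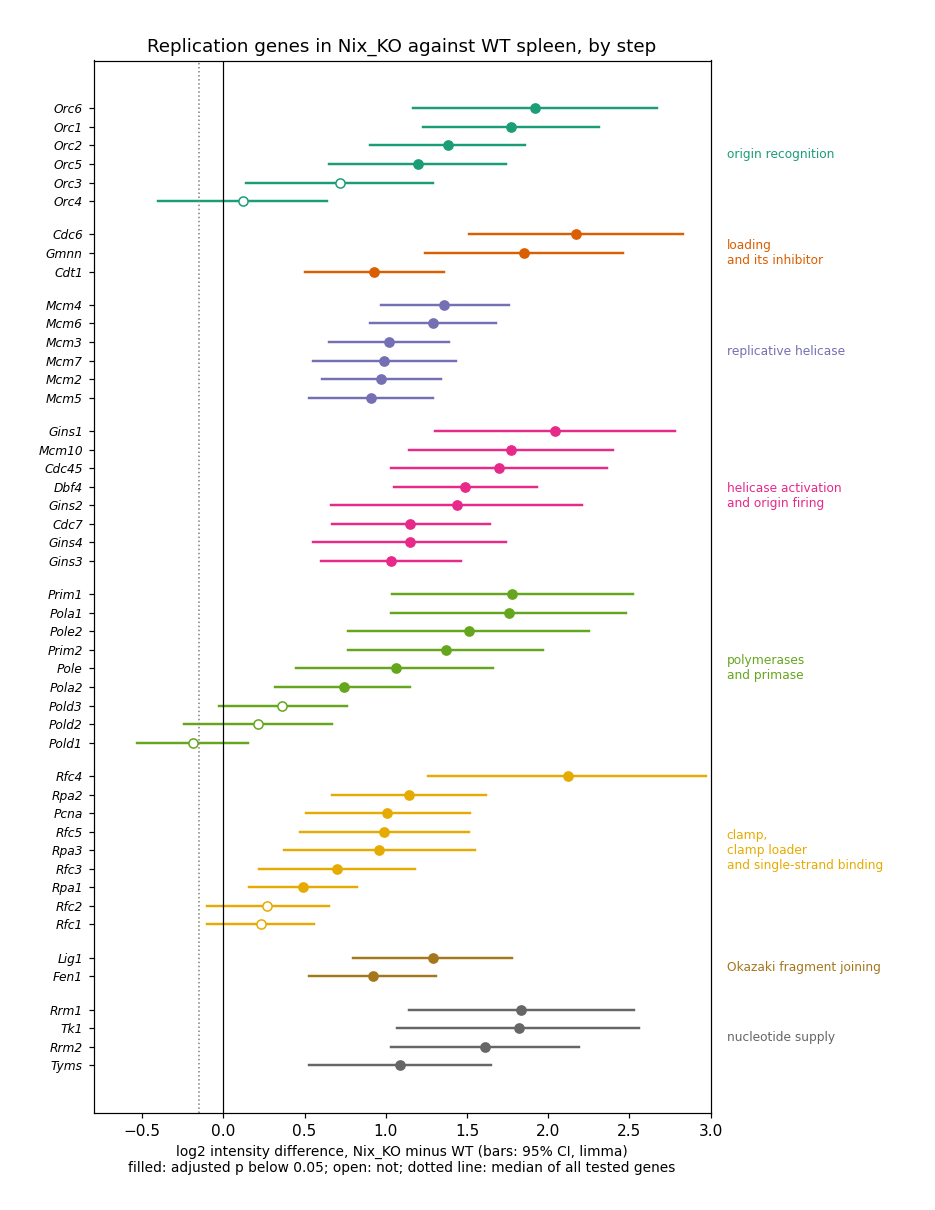
Log2 intensity difference of each replication gene, Nix_KO minus WT (x axis), with genes grouped by step down the page. Points are the limma estimates from 4 arrays per group, bars are 95% confidence intervals, filled points passed an adjusted p of 0.05, and the dotted line is the median of all tested genes (-0.15); 46 of the 47 points lie right of 0.

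At the level of probe sets, 104 were annotated to 1 of the genes alone and 89 of those passed the filter on dim signals. Of the 89, 71 were called higher, 0 lower and 18 did not pass, where 12.5% of all tested probe sets were called higher. The 15 that were too dim to be tested included another Cdt1 probe set, which read 3 to 3.57 in Nix_KO and 2.76 to 2.98 in WT. Only 2 of the 89, of Mcm5 and of Gins1, passed the filter through the Nix_KO arrays alone, and neither represents its gene. A gene is represented below by its brightest probe set, and 30 of the genes had more than 1 that was tested. Of those 30, 8 had probe sets that differed in call, and 0 had probe sets called in opposite directions. Representatives of 11 genes carry the suffix of probe sets that may also bind related transcripts. Of the 11, 9 were called higher, and all 9 had another tested probe set without that suffix. For 8 of the 9, all but Gins2, such a probe set was also called higher.

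The promoters of replication genes are known in mammals for binding sites of E2F factors, which switch these genes on when a cell enters the cycle. RefSeq promoters on GRCm38.p6, from 250 bases before to 50 bases after the start of transcription, were matched by symbol for 39 of the 47 genes. The 8 without an entry were Gmnn, Mcm4, Gins1, Gins2, Gins4, Prim2, Pole and Rfc2. An E2F-type motif, spelled here as TTTCCCGC, TTTCGCGC, TTTGCCGC or TTTGGCGC and searched on both strands, was present for 15 of the 39 genes (38.5%). It was present for 430 of the 8966 tested genes with an entry (4.8%, these genes included). Counted by promoter, it was in 15 of the 48 promoters of the 39 genes (31.2%) and in 744 of all 32851 promoters (2.26%). The spellings can overlap each other, and overlapping matches count once per gene. The 15 genes were Orc1, Orc3, Cdc6, Cdt1, Mcm3, Mcm5, Mcm6, Mcm7, Gins3, Pola1, Pold1, Pold3, Pole2, Rfc3 and Lig1. By step, the motif occurred in 4 of 5 helicase genes, in both loading genes with an entry and in 4 of 7 polymerase genes, against 1 of 8 genes of the clamp, its loader and the single-strand binding proteins and 0 of 4 nucleotide supply genes. Of the 33 genes with an entry that rose, 12 held it (36.4%), and of the 6 that did not pass, 3 did (50%), namely Orc3, Pold1 and Pold3. The letters CCAAT, a common promoter element and no part of the E2F-type spellings, were found for 23 of the 39 genes (59%) and for 42.9% of the tested genes. The windows printed here, 1 or more from each of 5 steps, show where the letters lie in genes that rose (Orc1, Cdc6, Mcm6, Gins3 and Pola1) and in 1 that did not pass (Orc3). Each is written 5′ to 3′ on the strand of its gene, with the motif in capitals.
Orc1, chr4:108579387-108579474, plus strand: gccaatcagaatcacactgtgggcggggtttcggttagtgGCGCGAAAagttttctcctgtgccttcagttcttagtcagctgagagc
Orc3, chr4:34614936-34615023, minus strand: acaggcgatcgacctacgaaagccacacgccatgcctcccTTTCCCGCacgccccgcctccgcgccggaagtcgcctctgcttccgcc
Cdc6, chr11:98907973-98908060, plus strand: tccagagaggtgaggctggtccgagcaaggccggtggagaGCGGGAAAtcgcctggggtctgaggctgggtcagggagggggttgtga
Mcm6, chr1:128359705-128359855, minus strand: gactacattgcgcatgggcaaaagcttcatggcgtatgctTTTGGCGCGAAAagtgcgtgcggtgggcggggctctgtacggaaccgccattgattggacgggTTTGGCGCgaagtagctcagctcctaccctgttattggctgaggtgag
Gins3, chr8:95633478-95633565, plus strand: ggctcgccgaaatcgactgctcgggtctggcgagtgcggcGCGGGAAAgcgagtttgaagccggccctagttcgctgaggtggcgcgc
Pola1, chrX:93632246-93632333, minus strand: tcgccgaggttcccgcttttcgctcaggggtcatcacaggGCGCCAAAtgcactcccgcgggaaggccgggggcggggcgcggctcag

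In these windows the motif began 27 bases before the start of transcription in Orc1, 41 bases before it in Orc3 and Gins3, and 138 bases before it in Cdc6 and Pola1. Mcm6 held 3 matches, of which a pair overlaps on opposite strands in the first run of capitals, the outermost beginning 110 and the innermost 47 bases before the start. A match is a run of letters and no record of binding.

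The origin recognition complex, 6 subunits that mark replication origins, split by subunit. Orc1, Orc2, Orc5 and Orc6 rose, and Orc3 and Orc4 did not pass the test. The median log2 difference of the 6 was 1.29. Orc6, the smallest subunit of the complex, read 9.18, 9.91, 9.53 and 10.34 in Nix_KO, against 8.57, 7.84, 7.08 and 7.81 in WT, a 3.78-fold rise (log2 difference 1.92 ± 0.33 SE, limma adjusted p = 0.00431). Its groups did not overlap, and WT 5 was the lowest array. Orc1, the ATPase subunit whose level is known to vary through the cell cycle in mammals, read 8.58, 8.89, 8.9 and 8.33 in Nix_KO and 7.45, 7.03, 6.79 and 6.36 in WT, a 3.41-fold rise (1.77 ± 0.24, adjusted p = 0.00263). Orc2, a core subunit, read 8.11, 8.55, 8.34 and 8.33 in Nix_KO and 7.36, 7.23, 6.5 and 6.73 in WT, a 2.6-fold rise (1.38 ± 0.21, adjusted p = 0.00332). Both subunits were higher in each Nix_KO array than in any WT array. Orc5, another ATPase-fold subunit, rose 2.29-fold (1.2 ± 0.24, adjusted p = 0.00741).

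Orc3, a core subunit, read 8.02, 8.49, 8.16 and 8.42 in Nix_KO and 8, 7.62, 6.8 and 7.8 in WT. Its groups did not overlap, but WT 3 and Nix_KO 10 lay next to each other, and the log2 difference of 0.72 ± 0.26 had an interval of 0.14 to 1.29 and an adjusted p of 0.0596. It passed in 5 of the alternative fits, with an adjusted p as low as 0.0394 in those. Orc4, an ATPase subunit, read 7.8, 7.72, 7.8 and 8.03 in Nix_KO and 8.02, 7.7, 7.05 and 8.11 in WT, so that the WT arrays spanned all of the Nix_KO ones. Its log2 difference was 0.12, with an interval of -0.4 to 0.64 and an adjusted p of 0.721. The other 3 probe sets of Orc4 were dimmer and 1 of them passed: it read 6.88, 6.98, 7.27 and 6.77 in Nix_KO and 6.64, 6.45, 6.4 and 6.45 in WT (log2 difference 0.49, adjusted p = 0.0384). The call for Orc4 thus depends on the probe set.

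On the brightest probe sets, loading of the helicase holds the gene with the largest difference of all 47. Dimmer probe sets of Rrm2 (log2 difference 2.44) and Orc1 (2.42) had larger ones. Cdc6, which brings Mcm rings to origins, read 11.9, 12.37, 12.2 and 12.62 in Nix_KO, against 10.75, 10.44, 9.84 and 9.39 in WT, a 4.51-fold rise (2.17 ± 0.29, adjusted p = 0.00257). Its lowest Nix_KO array stood more than 1 log2 unit above its highest WT array. Cdt1, its partner in loading, read 12.44, 13, 12.72 and 12.83 in Nix_KO and 12.11, 11.93, 11.84 and 11.41 in WT, a 1.9-fold rise (0.93 ± 0.19, adjusted p = 0.00769). A second Cdt1 probe set read 9.95, 10.17, 10.35 and 11.25 in Nix_KO and 10.21, 9.94, 9.97 and 9.51 in WT, with groups that overlapped (0.52, adjusted p = 0.181). Gmnn, geminin, the inhibitor that binds Cdt1 and prevents a second round of loading, read 11.13, 11.75, 11.7 and 11.8 in Nix_KO and 10.4, 9.83, 9.12 and 9.62 in WT, a 3.61-fold rise (1.85 ± 0.27, adjusted p = 0.00307). The loader, its partner and the inhibitor were all higher in every Nix_KO array than in any WT array.

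The Mcm2 to Mcm7 genes encode the ring of the replicative helicase. On their brightest probe sets they moved within a narrower range than the genes of any other step with more than 2 members. All 6 rose, with log2 differences of 0.91 to 1.36 and a median of 1.01. Mcm4 had the largest difference: 12.31, 12.48, 12.59 and 12.17 in Nix_KO, against 11.26, 11.24, 10.83 and 10.77 in WT, a 2.57-fold rise (1.36 ± 0.18, adjusted p = 0.00248). Mcm5 had the smallest: 14.3, 14.87, 14.42 and 14.44 in Nix_KO and 13.78, 13.63, 13.61 and 13.37 in WT, a 1.87-fold rise (0.91 ± 0.17, adjusted p = 0.00548). Even this gene's groups lay apart on that probe set. Another Mcm5 probe set rose by 0.74 with groups that overlapped. A dim one, which passed the filter through the Nix_KO arrays alone, rose by 1.78. Mcm2 read 11.84, 12.16, 12.15 and 11.93 in Nix_KO and 11.32, 11.03, 11.06 and 10.78 in WT, a 1.96-fold rise (0.97 ± 0.16, adjusted p = 0.0039). Mcm6, with the 3 motif matches shown above, rose 2.45-fold, and Mcm7 rose 1.98-fold. Mcm3 read 11.97, 12.36, 12.11 and 12.33 in Nix_KO and 11.48, 11.07, 11.1 and 11.02 in WT, a 2.03-fold rise (1.02 ± 0.17, adjusted p = 0.00359). Of its 5 probe sets 4 rose, and the other read 8.04, 8.62, 8.04 and 9.51 in Nix_KO and 7.96, 8.03, 7.8 and 7.99 in WT, where Nix_KO 6 alone stood far above the rest (0.61, adjusted p = 0.154).

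**Figure D2:**
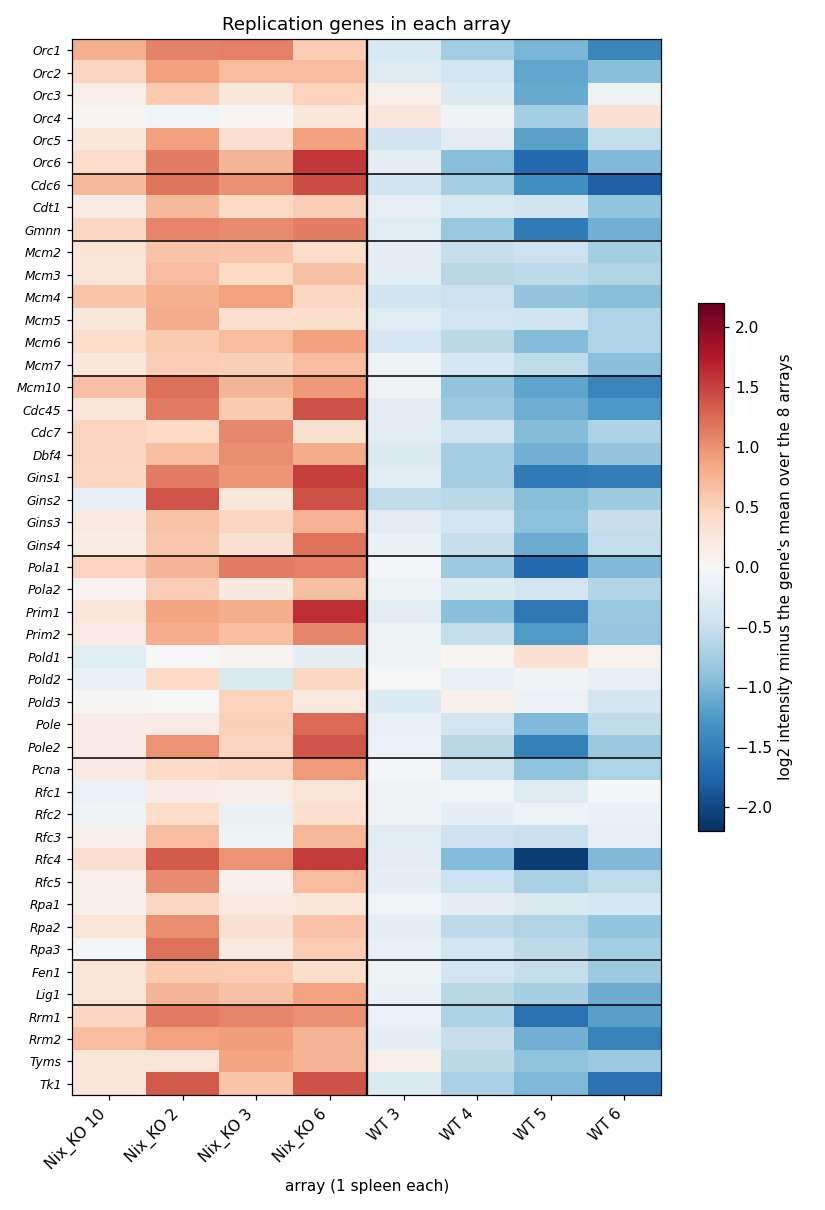
Each replication gene's log2 intensity in each array, minus that gene's mean over the 8 arrays (colour; red above, blue below), with genes in rows by step and the 4 Nix_KO arrays left of the 4 WT arrays. Most rows turn from red to blue at the line between the groups; the rows of Orc4, Pold1, Pold2, Pold3, Rfc1 and Rfc2 stay pale or mixed.

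Among the 8 genes that activate the helicase and fire origins, all rose, with a median log2 difference of 1.46. Gins1, a subunit of the 4-part GINS complex that joins the Mcm ring to polymerase epsilon, read 8.9, 9.58, 9.42 and 9.97 in Nix_KO, against 8.21, 7.69, 6.9 and 6.92 in WT, a 4.11-fold rise (2.04 ± 0.33, adjusted p = 0.00362). Gins3, another subunit of that complex, had the smallest difference of the step: 7.36, 7.79, 7.64 and 7.92 in Nix_KO and 6.93, 6.74, 6.26 and 6.66 in WT, a 2.04-fold rise (1.03 ± 0.19, adjusted p = 0.00524). Both subunits had groups that did not overlap. Gins4 rose 2.22-fold. Gins2 rose 2.7-fold, with 7.45, 9.01, 7.88 and 9.02 in Nix_KO and 7.07, 7.03, 6.68 and 6.84 in WT (1.44 ± 0.35, adjusted p = 0.0142). Its Nix_KO arrays fell into a high pair, 2 and 6, and a pair close to WT, 10 and 3. The second Gins2 probe set had the same split, 6.56, 8.38, 6.51 and 8.46 in Nix_KO and 6.25, 6.23, 6.03 and 6.27 in WT, and did not pass (1.28, adjusted p = 0.0567).

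Mcm10, which binds the activated helicase, read 9.62, 10.19, 9.73 and 9.94 in Nix_KO and 8.91, 8.12, 7.83 and 7.53 in WT, a 3.42-fold rise (1.77 ± 0.28, adjusted p = 0.00344). Cdc45, a part of the active helicase beside Mcm2 to Mcm7 and GINS, read 6.85, 7.73, 7.17 and 7.99 in Nix_KO and 6.34, 5.78, 5.51 and 5.33 in WT, a 3.24-fold rise (1.7 ± 0.3, adjusted p = 0.00434). Neither gene's groups overlapped. A second, dimmer Cdc45 probe set read 5.54, 5.65, 5.55 and 5.61 in Nix_KO and 5.52, 5.3, 5.3 and 5.54 in WT, a difference of 0.17 (adjusted p = 0.353). Cdc7, the kinase that phosphorylates the loaded ring, read 8.78, 8.72, 9.34 and 8.62 in Nix_KO and 8.06, 7.85, 7.34 and 7.59 in WT, a 2.23-fold rise (1.15 ± 0.22, adjusted p = 0.00546). Here, unlike for Gins2, Nix_KO 3 was the highest array. A second Cdc7 probe set lay near the filter's floor, at 5.4, 5.02, 5.45 and 5.48 in Nix_KO and 5.4, 5.35, 4.71 and 5.38 in WT (0.13, adjusted p = 0.653). Dbf4, the subunit that activates Cdc7, read 9.94, 10.12, 10.47 and 10.27 in Nix_KO and 9.14, 8.7, 8.39 and 8.59 in WT, a 2.82-fold rise (1.49 ± 0.2, adjusted p = 0.00249).

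Of the 9 polymerase and primase genes, 6 rose. They were the 4 genes of the polymerase alpha and primase complex, which lays down the primers, and Pole and Pole2 of polymerase epsilon, which copies the leading strand. Pold1, Pold2 and Pold3 of polymerase delta, which copies the lagging strand, did not pass on their brightest probe sets. Differences between the enzymes were not tested. Prim1, the catalytic primase subunit, read 9.92, 10.52, 10.45 and 11.28 in Nix_KO, against 9.4, 8.73, 8.08 and 8.82 in WT, a 3.44-fold rise (1.78 ± 0.33, adjusted p = 0.00528). Prim2, the large primase subunit, read 8.94, 9.56, 9.42 and 9.83 in Nix_KO and 8.64, 8.22, 7.51 and 7.9 in WT, a 2.59-fold rise (1.37 ± 0.27, adjusted p = 0.00627). Neither had overlapping groups, and Nix_KO 6 was the highest array for both. Pola1, the catalytic subunit of polymerase alpha, rose 3.38-fold, and Pola2, its regulatory subunit, rose 1.67-fold. Pole, the catalytic subunit of polymerase epsilon, rose 2.08-fold and its partner Pole2 rose 2.85-fold. The small polymerase epsilon subunits Pole3 and Pole4 are among the other replication genes and are named here after their values were seen. Pole3 rose 2.46-fold (1.3 ± 0.29, adjusted p = 0.0108), and Pole4 did not pass (0.01 ± 0.23, interval -0.5 to 0.52, adjusted p = 0.984). The call of Pola2 was lost without WT 6 and that of Pole without WT 5.

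Pold1, the catalytic subunit of polymerase delta, was the only 1 of the 47 genes with a difference below 0. It read 10.61, 10.88, 10.93 and 10.68 in Nix_KO and 10.8, 10.91, 11.21 and 10.94 in WT, with groups that overlapped (-0.19 ± 0.15, interval -0.53 to 0.15, adjusted p = 0.369). A second Pold1 probe set read 8.19, 8.74, 8.3 and 8.83 in Nix_KO and 8.94, 8.87, 9.17 and 9.09 in WT. There every Nix_KO array lay below every WT array, and the difference of -0.51 ± 0.18 did not pass (adjusted p = 0.0618). Pold2, the regulatory subunit, read 9.31, 9.9, 9.13 and 9.91 in Nix_KO and 9.45, 9.3, 9.38 and 9.27 in WT, with Nix_KO 2 and 6 above and 10 and 3 near or below the WT arrays (0.21 ± 0.2, interval -0.24 to 0.67, adjusted p = 0.446). Pold3, an accessory subunit, read 9.99, 9.95, 10.47 and 10.16 in Nix_KO and 9.66, 10.07, 9.83 and 9.55 in WT (0.36 ± 0.18, interval -0.03 to 0.76, adjusted p = 0.145). Its 3 probe sets differed: a dimmer one read 7.6, 8.16, 8.32 and 8.89 in Nix_KO and 7.08, 7.21, 6.89 and 7.13 in WT and rose (1.16, adjusted p = 0.00859). The remaining one read 9.23, 9.42, 9.59 and 9.57 in Nix_KO and 9.26, 9.06, 9.17 and 8.88 in WT (0.36, adjusted p = 0.102). On the brightest probe sets the intervals of all 3 genes end below the 2-fold mark, while that of the dimmer Pold3 probe set runs past it, 0.61 to 1.72.

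The sliding clamp, its loader and the single-strand binding proteins had the lowest median of the steps, 0.96, with 7 of 9 genes called higher. Pcna, the clamp that holds polymerases on DNA, rose 2.02-fold and lay above WT in every Nix_KO array (1.01 ± 0.23, adjusted p = 0.0103). Within the clamp loader the range was wide. Rfc4 read 10.79, 11.77, 11.41 and 11.96 in Nix_KO, against 10.19, 9.47, 8.35 and 9.45 in WT, a 4.34-fold rise (2.12 ± 0.38, adjusted p = 0.00477). Rfc1, the largest subunit of the same loader, read 8.1, 8.4, 8.36 and 8.52 in Nix_KO and 8.16, 8.17, 7.95 and 8.18 in WT (0.23 ± 0.15, interval -0.1 to 0.56, adjusted p = 0.257). The Rfc4 groups stood well apart, while Nix_KO 10 lay inside the WT range for Rfc1. Rfc2 read 10.19, 10.67, 10.11 and 10.63 in Nix_KO and 10.18, 10.07, 10.15 and 10.11 in WT (0.27 ± 0.17, interval -0.1 to 0.65, adjusted p = 0.239). Its arrays 2 and 6 of Nix_KO were high and 10 and 3 were at the WT level. Both other Rfc2 probe sets rose, and both carry the suffix of probe sets that may also bind related transcripts. The first read 7.95, 8.96, 8.23 and 8.54 in Nix_KO and 7.38, 7.66, 7.73 and 7.52 in WT (0.85, adjusted p = 0.0186). The second read 9.11, 9.79, 9.4 and 9.65 in Nix_KO and 8.95, 8.9, 8.87 and 8.76 in WT (0.62, adjusted p = 0.0247). Rfc5 rose 1.98-fold and Rfc3 rose 1.62-fold. Of the 3 subunits of RPA, the complex that coats single-stranded DNA, Rpa2 rose 2.21-fold, Rpa3 1.95-fold and Rpa1, the largest subunit, 1.41-fold, the smallest change of any gene that passed. The calls of Rfc3, Rpa1 and Rpa3 were lost when certain single arrays were left out. None of the 3 passed without WT 4, without WT 5 or without WT 6. Rpa1 also failed without Nix_KO 2 or Nix_KO 3, and Rfc3 without Nix_KO 2, Nix_KO 6 or WT 3.

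Okazaki fragments are finished by Fen1, the nuclease that trims their flaps, and Lig1, the ligase that seals them, and both genes rose. Lig1 read 11.12, 11.56, 11.47 and 11.71 in Nix_KO, against 10.67, 10.2, 10.08 and 9.73 in WT, a 2.45-fold rise (1.29 ± 0.22, adjusted p = 0.00402). Fen1 read 12.2, 12.48, 12.45 and 12.29 in Nix_KO and 11.8, 11.48, 11.38 and 11.09 in WT, a 1.89-fold rise (0.92 ± 0.18, adjusted p = 0.0059). In both, WT 6 was the lowest array and the groups did not overlap. A dimmer Fen1 probe set rose 2.86-fold (1.52, adjusted p = 0.00352), more than Lig1. Which of these genes rose more thus depends on the probe set.

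All 4 nucleotide supply genes rose, with a median log2 difference of 1.71. Rrm1 and Rrm2 encode the large and small subunits of ribonucleotide reductase, which makes deoxynucleotides. Rrm1 read 11.49, 12.16, 12.09 and 12.02 in Nix_KO, against 10.89, 10.32, 9.38 and 9.83 in WT, a 3.57-fold rise (1.83 ± 0.31, adjusted p = 0.00396). Rrm2 read 14, 14.21, 14.23 and 14.06 in Nix_KO and 13.12, 12.82, 12.26 and 11.85 in WT, a 3.06-fold rise (1.61 ± 0.26, adjusted p = 0.00357). On this probe set of Rrm2 the Nix_KO arrays lay within a narrow band and the WT arrays were spread over more than 1 log2 unit. Its dimmer probe sets were spread more widely in Nix_KO, at 12.42 to 13.33 and 10.77 to 12.3. Tk1, the thymidine kinase of dividing cells, read 10.7, 11.78, 11.03 and 11.83 in Nix_KO and 10.11, 9.72, 9.44 and 8.81 in WT, a 3.52-fold rise (1.82 ± 0.33, adjusted p = 0.00504). Tyms, thymidylate synthase, read 6.62, 6.62, 7.22 and 7.1 in Nix_KO and 6.45, 5.76, 5.46 and 5.54 in WT, a 2.13-fold rise (1.09 ± 0.25, adjusted p = 0.0113). The Tyms groups also lay apart. Another Tyms probe set, shared with a pseudogene and therefore not counted, read 8.99, 10.2, 9.57 and 10.35 in Nix_KO and 8.6, 7.78, 7.57 and 7.49 in WT (1.92, adjusted p = 0.00453).

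Steps were compared by the mean log2 intensity of their genes in each array, as a description with no test. The difference of these means was 1.65 for the loading factors and geminin, 1.59 for nucleotide supply, 1.47 for helicase activation and firing and 1.18 for origin recognition. It was 1.11 for Okazaki fragment joining, 1.09 for the helicase ring, 0.96 for the polymerases and primase and 0.88 for the clamp, its loader and RPA. For each of the 8 steps the lowest Nix_KO array stood above the highest WT array. Each gene weighs equally in these means, so the genes that did not pass pull down the steps of origin recognition, the polymerases and the clamp.

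Within steps, 10 pairs of genes were compared by their ratio inside each array, which asks whether both changed alike. The pairs were chosen with earlier results of these data known, and their p-values do not allow for that choice. The test was an exact two-sided permutation test over the 8 arrays, whose smallest possible p is 0.0286, adjusted over the 10 pairs. None passed an adjusted p of 0.05, and 5 pairs reached the smallest p with groups that did not overlap (adjusted p = 0.0571 each). The 5 were Rfc4 against Rfc1, Orc1 against Orc4, Cdt1 against Gmnn, Prim1 against Prim2 and Cdc7 against Dbf4. The log2 ratio of Rfc4 to Rfc1 was 2.7, 3.37, 3.05 and 3.44 in Nix_KO and 2.03, 1.3, 0.4 and 1.27 in WT, a difference of 1.89 ± 0.37. That of Orc1 to Orc4 was 0.78, 1.17, 1.09 and 0.3 in Nix_KO and -0.57, -0.67, -0.25 and -1.75 in WT, a difference of 1.65 ± 0.38. The ratio of Cdt1 to its inhibitor Gmnn went the other way, with 1.32, 1.24, 1.02 and 1.03 in Nix_KO and 1.7, 2.1, 2.71 and 1.8 in WT, a difference of -0.92 ± 0.24. In that pair geminin had the larger rise. The ratio of Prim1 to Prim2 differed by 0.41 ± 0.15 and that of Cdc7 to Dbf4 by -0.34 ± 0.13. With 5 pairs at the smallest possible p the adjusted p cannot fall below 0.0571, so the threshold could not be passed by these 5 alone. Mcm10 to Mcm2 differed by 0.8 ± 0.22 (exact permutation p = 0.0571, adjusted p = 0.0952), with 1 WT array inside the Nix_KO range. The other 4 pairs had overlapping groups. Their differences were 0.39 ± 0.19 for Orc1 to Orc2, 0.72 ± 0.35 for Tk1 to Tyms, -0.4 ± 0.25 for Pold1 to Pold2 and -0.22 ± 0.22 for Rrm2 to Rrm1, with adjusted p of 0.143, 0.143, 0.19 and 0.371 by the same exact permutation test. A p that misses the threshold in 4 against 4 arrays does not show that a pair changed alike.

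**Figure D3:**
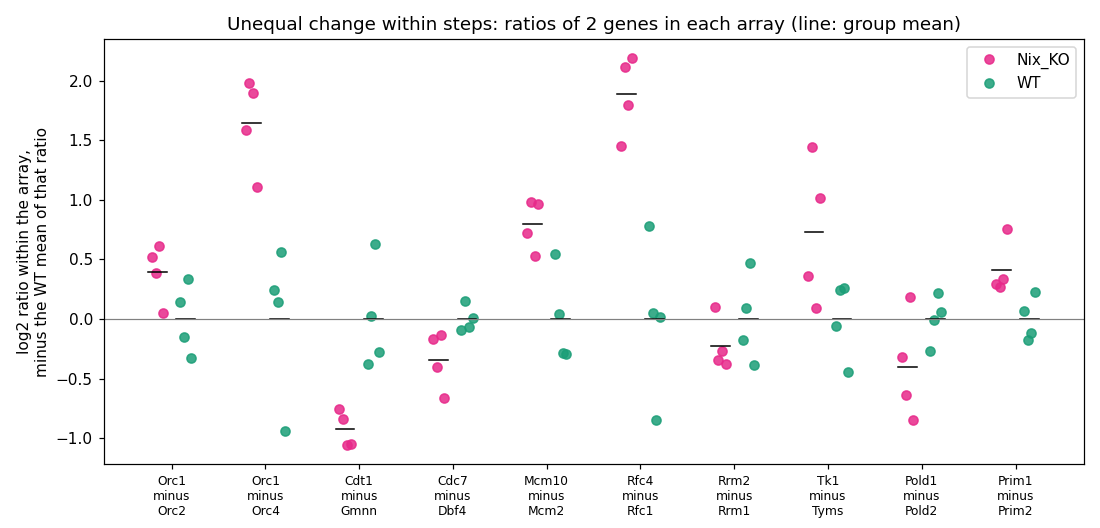
Log2 ratio of both genes of a pair within each array, minus the WT mean of that ratio (y axis), for the 10 pairs (x axis), with Nix_KO points left of WT points and a line at each group mean. The groups lie apart for Rfc4 to Rfc1 and Orc1 to Orc4 (Nix_KO higher) and for Cdt1 to Gmnn (Nix_KO lower), and overlap for Rrm2 to Rrm1 and Pold1 to Pold2.

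The arrays of a group also differed in a way that most of the replication genes shared. The mean over the 47 genes was 10.07, 10.56, 10.35 and 10.62 in Nix_KO and 9.62, 9.31, 8.92 and 9.04 in WT. Nix_KO 10 was the lowest Nix_KO array for 38 of the 47 genes, which it was for 20.4% of all tested genes. WT 3 was the highest WT array for 41 of the 47 genes, against 23.7% of all tested genes, and WT 5 or WT 6 was the lowest for 25 and 20 of them. The 2 arrays nearest to each other across the groups were thus Nix_KO 10 and WT 3. WT 3 also had the highest list mean among WT arrays for the markers of red cell precursors (11.79) and of neutrophils and their precursors (9.11). Nix_KO 10 had the lowest among Nix_KO arrays for both (12.7 and 9.43). The other ends differed. WT 6 was lowest for both lists (9.81 and 6.48), and WT 5 for the 47 genes. Nix_KO 3 was highest for red cell precursors (13.16), Nix_KO 2 for neutrophils and their precursors (10.59) and Nix_KO 6 for the 47 genes. In a pattern picked out after the values were seen, Nix_KO 2 and 6 both lay above Nix_KO 10 and 3 for 30 of the 47 genes (63.8%), against 30.7% of all tested genes. Without the 3 arrays with pancreatic signal, which leaves 3 Nix_KO and 2 WT arrays, 15 of the 47 genes passed, where 2.64% of all tested genes were called higher. The 15 were Orc1, Orc6, Cdc6, Gmnn, Mcm3, Mcm4, Mcm6, Mcm10, Dbf4, Gins1, Pola1, Rfc4, Lig1, Rrm1 and Rrm2. The other 25 genes called with all 8 arrays lost their call (limma adjusted p up to 0.145), with log2 differences of 0.56 to 2.17. They were Orc2, Orc5, Cdt1, Mcm2, Mcm5, Mcm7, Cdc45, Cdc7, Gins2, Gins3, Gins4, Pola2, Prim1, Prim2, Pole, Pole2, Pcna, Rfc3, Rfc5, Rpa1, Rpa2, Rpa3, Fen1, Tyms and Tk1. The median difference was then 1.17, 45 of the 47 genes stayed above 0, and in 43 the remaining Nix_KO arrays all lay above the remaining WT arrays, against 22.2% of all tested genes.

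**Figure D4:**
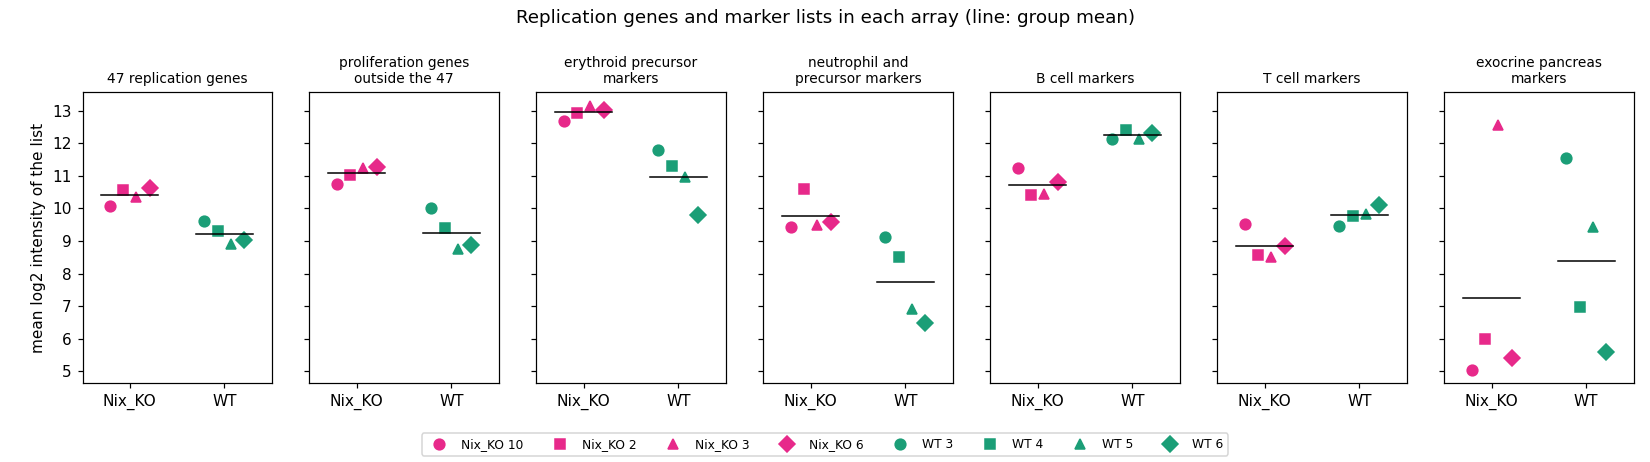
Mean log2 intensity (y axis) of the replication genes and of the marker lists in each array, with Nix_KO points left of WT points and a line at each group mean of 4 arrays. Replication genes, red cell precursors and neutrophil precursors are higher in all Nix_KO arrays than in any WT array, B cell markers are lower in all of them, and pancreatic markers are high in single arrays of both groups.

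Other genes of replication, fork protection, histone and nucleotide supply and translesion synthesis were mostly higher too. Of 48 listed genes 45 were tested, and 30 rose, 4 fell and 11 did not pass, where 13.1% of all tested genes were called higher and 21.3% lower. Their median log2 difference was 0.91, against -0.15 over all tested genes. Among those that rose, the 4 with the smallest adjusted p were Clspn, Atad5, Dscc1 and Top2a. Clspn, the fork checkpoint mediator claspin, read 8.57, 8.81, 9.14 and 9.14 in Nix_KO, against 7.4, 6.96, 6.49 and 6.35 in WT, a 4.34-fold rise (2.12 ± 0.25, adjusted p = 0.00217). Atad5, which unloads the clamp, read 8.19, 8.56, 8.73 and 8.26 in Nix_KO and 6.9, 6.75, 6.16 and 5.87 in WT, a 4.05-fold rise (2.02 ± 0.25, adjusted p = 0.00231). Both were higher in each Nix_KO array than in any WT array by more than 1 log2 unit. Dscc1, a subunit of an alternative clamp loader, read 8.76, 9.72, 9.45 and 9.72 in Nix_KO and 7.55, 7.08, 6.2 and 6.75 in WT, a 5.72-fold rise (2.52 ± 0.31, adjusted p = 0.00235). Top2a, the topoisomerase that untangles replicated chromosomes, rose 3.05-fold, with 11.39, 11.53, 11.75 and 11.59 in Nix_KO and 10.44, 10.1, 9.62 and 9.66 in WT (1.61 ± 0.2, adjusted p = 0.00242).

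The 4 genes that fell were Pold4, Samhd1, Tk2 and Poli. Pold4, the smallest subunit of polymerase delta, read 8.72, 8.41, 7.76 and 8.78 in Nix_KO, against 9.69, 10.12, 10.1 and 10.08 in WT, and was 2.99-fold lower in Nix_KO (-1.58 ± 0.24, adjusted p = 0.00312). Of the 4 subunits of polymerase delta, then, 1 fell and the other 3 did not pass on their brightest probe sets. Samhd1, which breaks down deoxynucleotides, read 11.02, 10.17, 10.65 and 10.41 in Nix_KO and 11.36, 11.42, 11.77 and 11.52 in WT, 1.94-fold lower in Nix_KO (-0.95 ± 0.2, adjusted p = 0.00828). Tk2, the mitochondrial thymidine kinase, read 8.69, 8.5, 8.45 and 9.12 in Nix_KO and 9.46, 9.84, 9.39 and 9.53 in WT, 1.82-fold lower in Nix_KO (-0.86 ± 0.19, adjusted p = 0.00926). The groups of all 3 genes lay apart, and Tk2 moved opposite to Tk1, its counterpart in dividing cells. Poli, a translesion polymerase, read 7.41, 7.22, 7.34 and 7.63 in Nix_KO and 8.19, 7.73, 7.76 and 7.89 in WT, 1.41-fold lower in Nix_KO (-0.49 ± 0.16, adjusted p = 0.0456).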

How the data were processed

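RNA from 8 spleens, 4 of each genotype, was hybridised to Affymetrix mouse expression arrays. For each array the authors deposited a linear intensity per probe set, made with GCRMA per the submitters' processing notes. GCRMA corrects background and normalizes between arrays, and it compresses the signal of dim probe sets; no source used here gives its version or the step that made the values linear. Those deposited intensities were put on a log2 scale with no offset. Of 45101 probe sets, 64 controls were left out, and the 22347 that reached 5 on the log2 scale in 4 arrays or more were tested with limma 3.58.1 in R 4.3.3 (lmFit and eBayes, two-sided). P-values were adjusted by Benjamini-Hochberg over all of them with a threshold of 0.05, and every adjusted p of a single gene or probe set is from that fit unless an alternative is named beside it. Names came from the platform annotation, where 34945 probe sets had 1 gene symbol, 932 several and 9160 none. A gene was represented by its brightest tested probe set with 1 symbol, which gave 11027 genes. Errors of differences are standard errors, and intervals are 95% confidence intervals; precision is limited by 4 arrays a group. The labels describe the extracts as not pooled, so each array is taken as 1 animal.

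Values in every array are given, by rule, for the largest and smallest difference of each step, genes that did not pass, genes of the pairs, genes whose probe sets differ in call, and the 4 smallest adjusted p in each direction among other replication genes. The genes, pairs and lists were chosen with earlier results of these data known. The fit was tested on simulated data. Alternatives covered the filter, normalization, offset, probe set rule, variance prior, a replicate block and leaving out arrays. Plots used matplotlib 3.10.9 (Python 3.11.15).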

Additional observations from a re-analysis of the deposited data

Results flagged for a closer look

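In 4 of 114 groups of 4 arrays examined, the highest or lowest array stood apart from the other 3 by more of the group's range than Dixon's 95% critical value for a group of that size; chance alone gives about 1 in 20. Gmnn was low in Nix_KO 10, at a log2 intensity of 11.13 against 11.7 to 11.8 in the other Nix_KO arrays (0.845 of the range). Mcm3 was high in WT 3, at 11.48 against 11.02 to 11.1 (0.844 of the range). Rfc1 was low in WT 5, at 7.95 against 8.16 to 8.18 (0.902 of the range). The log2 ratio of Prim1 to Prim2 was high in Nix_KO 6, at 1.45 against 0.96 to 1.03 (0.859 of the range).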

How the results depend on the processing

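Under the filters, normalizations, offset, probe set rules and variance prior tried, 39 to 42 of the 47 genes rose and 0 fell. In the same fits 7.65% to 15.5% of all tested genes were called higher. The stricter filter left 45 of the 47 to test, without Cdc45 and Tyms, and 39 rose. Median centring moved the median of all genes by 0.12. Among all calls in either direction it raised the higher share to 48.2%, against 38.1% in the reported fit. Leaving out 1 array in turn gave 36 to 40 of the 47 genes higher and 0 lower, with a median difference of 1 to 1.27. In these fits 9.21% to 13.3% of all tested genes were called higher. Among the other replication genes 26 to 31 were higher and 3 to 4 lower. Of the 40 genes 35 passed each time, and Pola2, Pole, Rfc3, Rpa1 and Rpa3 did not. Without WT 4 or WT 6, genes lower over the whole array numbered 1304 and 1330, against 2347. The number in the titles was also used as a replicate block, which leaves 1 residual degree of freedom. Then 0 of the 47 genes and 0 other replication genes passed in either direction (the smallest member limma adjusted p was 0.0771). Of all 11027 tested genes, 0 were called higher and 1 lower in that fit. The median of the 47 genes stayed 1.15 and 45 of their differences were above 0. Only the numbers 3 and 6 are shared, and no label says that they pair animals, so the block is not taken as a pairing. Deviations of arrays with the same number correlated at 0.25 and 0.15. The range over all cross-group pairs was -0.49 to 0.38, and with so few shared numbers these values cannot decide the question. Without the 3 arrays with pancreatic signal, 15 genes rose, as did 9 other replication genes, and 1 of those fell, with fewer samples in the fit. There 2.64% of all tested genes were called higher. Orc4 passed in none of these fits by its brightest probe set or the mean of its probe sets, though a dimmer probe set passed in the reported fit. On the brightest probe set its difference turned to -0.15 with the block, -0.06 without those 3 arrays and -0.1 without WT 5. Pold3 and Rfc2 passed with the mean of probe sets, which for Rfc2 takes in probe sets that may also bind related transcripts.

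Pairs passed at an adjusted p of 0.0476 only where 6 of the 10 stood at the smallest possible p of 0.0286, so a pass depends on the other pairs and does not show a larger difference. With quantile normalization the 6 were Orc1 to Orc4 (1.63), Cdt1 to Gmnn (-0.98), Cdc7 to Dbf4 (-0.29), Mcm10 to Mcm2 (0.9), Rfc4 to Rfc1 (1.82) and Prim1 to Prim2 (0.38). With log2(intensity + 16) they were Orc1 to Orc4 (1.53), Cdt1 to Gmnn (-0.91), Cdc7 to Dbf4 (-0.36), Rfc4 to Rfc1 (1.87), Tk1 to Tyms (0.89) and Prim1 to Prim2 (0.43). With the mean of probe sets they were Orc1 to Orc2 (0.62), Orc1 to Orc4 (1.74), Cdt1 to Gmnn (-1.13), Cdc7 to Dbf4 (-0.85), Mcm10 to Mcm2 (0.72) and Rfc4 to Rfc1 (1.82), and Rrm2 to Rrm1 turned to 0.25 (adjusted p = 0.343). Without the 3 arrays, Cdt1 to Gmnn was -0.75, Cdc7 to Dbf4 -0.49, Mcm10 to Mcm2 1.02 and Pold1 to Pold2 -0.63, and the other 6 were 0.56 (Orc1 to Orc2), 1.96 (Orc1 to Orc4), 1.88 (Rfc4 to Rfc1), -0.06 (Rrm2 to Rrm1), 1.04 (Tk1 to Tyms) and 0.41 (Prim1 to Prim2). With 1 array left out, Cdt1 to Gmnn ran between -1.05 and -0.71. The causes were not tested.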
